A study of Mus musculus with 6 samples.

Results

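The clustered histone genes examined here were the protein-coding genes of the deposited count table whose names begin with Hist1h to Hist4h, which made 67 genes of 54532 in all, of which 22046 are protein-coding. The rule that defined these 67 genes used gene names and biotype and no measured value. The genes described singly were picked partly by their values. RNA was sequenced from whole kidneys of male mice, with 3 wild-type (WT) mice, replicates 1, 2 and 3, and 3 Trpm2-/- mice, replicates 1, 2 and 4. All 6 mice carried the C57BL/6J strain label and an age label of 6 to 8 weeks, although the study's methods give an older range. All 6 had also received cisplatin, a platinum drug that damages tubular cells, at 18 mg/kg and were euthanized 72 h later, so the comparison is of genotypes under treatment and holds no untreated kidney. Trpm2 encodes a cation channel opened by oxidative stress, and the Trpm2-/- allele lacks a pair of exons, with no tissue-specific promoter or Cre stated. The WT mice were purchased and the Trpm2-/- line came from another institution, and the methods do not state that the groups were littermates. Whether the libraries were made from poly(A)-selected or rRNA-depleted RNA, and whether they kept strand, is not given in the sources used here.

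Histone genes are of different kinds. The clustered genes encode the H1 linker histones and the core histones H2A, H2B, H3 and H4, and most are transcribed in S phase, when new chromatin is assembled. Their mRNAs typically have no introns and end at a short stem-loop, which the stem-loop binding protein SLBP holds, in place of a poly(A) tail. Some clustered genes can also use a polyadenylation signal further downstream, mostly in cells that have stopped dividing, and the resulting mRNA has a tail like that of other genes. The tubular epithelium of the adult kidney divides slowly, and surviving tubular cells enter the cell cycle after injury.

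The ends of the mRNAs are therefore shown first. Within 120 bases after the stop codon, 44 of the 67 genes held a histone stem-loop, searched as 6 bases, a loop of 4 starting with TT, and 6 bases pairing with the first 6. Of all 21699 coding genes of the GENCODE mouse annotation, release 21 (GRCm38), 0.853% held such a sequence there. The 44 genes used 6 different stem-loops, printed here with 1 gene for each on the strand of the gene and with the 2 pairing arms in capitals. The commonest, that of Hist1h1c, occurred in 26 genes.
Hist1h1c: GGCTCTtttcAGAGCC
Hist1h4h: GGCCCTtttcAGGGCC
Hist2h4: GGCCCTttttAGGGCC
Hist1h2bb: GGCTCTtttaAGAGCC
Hist1h4b: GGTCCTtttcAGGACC
Hist2h2ac: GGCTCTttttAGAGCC

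The letters of the polyadenylation signal, AATAAA, occurred after the stop codon in annotated transcripts of 19 of the 67 genes, against 79.4% of all coding genes. Both features were found in 14 genes and neither in 18, whose annotated sequence after the stop codon had a median of 0 bases. Where the annotation ends at the stop codon, neither feature could be found. In Hist1h1c, the gene of linker histone H1.2, the stem-loop began 24 bases after the stop codon (chr13:23739512-23739527, plus strand, GRCm38) and the annotated transcript went on for another 840 bases. In Hist1h4h, a histone H4 gene, it began 31 bases after the stop codon (chr13:23531458-23531473, plus strand) and the transcript ended 46 bases later with no AATAAA. Hist1h4h did hold ATTAAA, a variant of this signal, after the stop codon. Hist1h2bc, a histone H2B gene, held AATAAA in 742 bases of sequence after the stop codon and no stem-loop in the window searched. Hist2h2be, another H2B gene, was of the same kind, with 2192 bases after the stop codon. The annotated transcript of Hist1h2bc is spliced, as its 1156 exonic bases lie within 23684199 to 23692908 on chromosome 13. The search ran along transcripts, so intron sequence was not searched.

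Reads on these genes were few and were concentrated on a small number of members. They made up 0.0348% to 0.0381% of all counts in the WT libraries and 0.0218% to 0.0274% in the Trpm2-/- libraries, at depths of 14053307 to 17150089 counts. A level of 3 counts, taken as the lowest that can be told from none, was 0.175 to 0.213 CPM (counts scaled to a library of 1e+06). Of the 67 genes, 57 had at least 1 count and 34 had 10 or fewer over all 6 libraries. The 10 genes without a read were Hist1h2aa, Hist1h2ak, Hist1h2an, Hist1h2ap, Hist1h2ba, Hist2h2aa1, Hist2h2aa2, Hist2h2bb, Hist2h3b and Hist2h3c1. For 5 of these, Hist2h2aa1, Hist2h2aa2, Hist2h2bb, Hist2h3b and Hist2h3c1, 100% of the 75-base windows also occurred in another gene, and for Hist1h2an and Hist1h2ap 84.6% and 92.7% did. How reads that match several genes were counted is not given in the sources used here, so the counting floor is not a detection limit for such genes. A filter on low counts kept 18 genes for testing, 3 of 6 H1 genes, 2 of 18 H2A genes, 5 of 18 H2B genes, 1 of 12 H3 genes and 7 of 13 H4 genes. The other 49 had at most 40 counts in all, and they summed to 4.39 ± 0.733 CPM in WT and 4.25 ± 0.379 CPM in Trpm2-/- kidneys (SD, n = 3 each).

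Whether a gene had reads went with both its shared sequence and its annotated 3′ end. The 31 genes with over 50% of their windows in another gene held 326 of all 29315 counts, and 1 of them was tested. The tested genes had a median of 851 annotated bases after the stop codon and the others 77. More than 200 such bases were annotated in 15 of the 18 tested genes and in 9 of the 49 others, and AATAAA in 11 of the 18 and 8 of the 49. Genes with AATAAA held 27128 of the 29315 counts, of which Hist1h1c and Hist1h2bc held 23797 and the other 17 such genes 3331. The 48 genes without AATAAA held 2187. The 30 genes with a stem-loop and no AATAAA held 2119 counts. Among these were Hist1h4h (783 counts), Hist1h4i (570) and Hist1h4d (59), which hold ATTAAA, a variant of the signal. The 18 genes with neither a stem-loop nor AATAAA held 68 counts, with 0 of the 18 tested. Their annotated sequence after the stop codon had a median of 0 and a maximum of 95 bases. Where the annotation ends at the stop codon, neither feature could be found. An annotated long end is itself often drawn from sequenced mRNA, and reads are divided over gene models of unequal length, so this is a description of the table, and the parts of the 3′ end and of shared sequence were not tested.

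**Figure D1:**
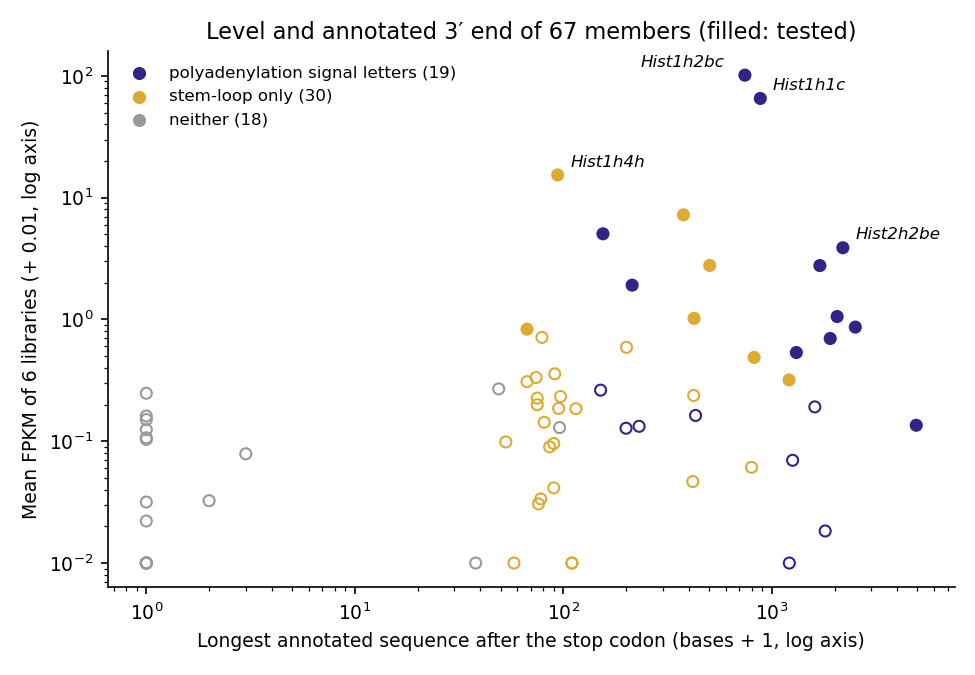
Mean level (FPKM, reads scaled to gene length and library size, over the 6 libraries, with 0.01 added, log axis) against the longest annotated sequence after the stop codon (bases, with 1 added, log axis) for the 67 clustered histone genes. Colours give the signal found, filled points the 18 genes tested. Hist1h2bc and Hist1h1c stand above all others. No gene with neither signal was tested, and these genes had a median of 0 annotated bases after the stop codon.

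Compared per length of gene model, Hist1h2bc had the highest level, with a mean FPKM of 123 ± 15 in WT and 79.4 ± 13.2 in Trpm2-/- kidneys (SD, n = 3 each). Hist1h1c came next with 83.7 ± 2.28 and 46.9 ± 4.55 FPKM. Hist1h4h followed with 20.04 ± 5.44 and 10.7 ± 2.73 FPKM. Hist1h4i, also an H4 gene, had 8.30 ± 1.92 and 6.14 ± 1.65 FPKM. No H2A or H3 gene came near these: the highest H2A gene was Hist3h2a with 3.17 ± 0.447 and 2.35 ± 0.934 FPKM, and the highest H3 gene was Hist2h3c2 with 1.21 ± 0.238 and 0.811 ± 0.233 FPKM.

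The targeted gene was looked at before the genotypes were compared. The WT mice gave 5, 5 and 27 reads on Trpm2 and the Trpm2-/- mice gave 10, 16 and 20, at a log2 fold change of 0.36 and an adjusted p of 0.776 (edgeR), and its sign turned without WT mouse 1 (-0.02) or WT mouse 2 (-0.01). A count over the whole gene includes the exons that the allele keeps, so it does not check the genotype. No pair of libraries agreed within sampling noise, with a chi-square per degree of freedom of 13.5 to 36.7 within genotypes. The labels do not name a batch. Kidney markers were present in every library, with 12 of 12 tested, and their summed level was 4175 to 6014 CPM in WT and 1462 to 2605 CPM in Trpm2-/- kidneys.

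In Trpm2-/- kidneys, 2 of the 18 clustered histone genes tested were called lower and 0 higher, both calls being genes with many reads. These were Hist1h1c, at 0.555 times the mean WT level, and Hist1h2bc, at 0.637 times. Calls required an adjusted p under 0.05, where edgeR's quasi-likelihood p-values were adjusted by the Benjamini-Hochberg method over all 15816 genes that passed the filter. Over all of these, 7.28% were called lower and 4.74% higher, so 2 of 18 (11.1%) is near the background for lower calls. No member was called higher in any of the 16 alternative analyses. Of the 18 log2 fold changes, 8 were above 0 and 10 below, with a median of -0.12 against 0.02 for all genes tested. The unadjusted p was under 0.05 for 3 lower and 2 higher members, where all genes gave 14.3% and 14%. The study's methods set a threshold of an absolute log2 fold change above 1 with an unadjusted p under 0.05. At this threshold 1 gene was higher, Hist2h4, and 0 lower, where all genes gave 3.5% and 4.1%. Hist2h4 passed the filter on low counts through the Trpm2-/- libraries, so this count partly follows the filter.

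Hist1h1c is 1 of 6 linker histone genes, whose proteins bind the DNA between nucleosomes. Its level was 145, 153 and 149 CPM in WT mice 1, 2 and 3, and 79.7, 92.4 and 76.2 CPM in Trpm2-/- mice 1, 2 and 4, on library sizes normalized by the TMM method. The WT mice lay close together and every Trpm2-/- mouse was below all of them. Its log2 fold change was -0.85 ± 0.127 (SE), with an adjusted p of 0.00417 (edgeR), and it was called in all 16 alternative analyses, with log2 fold changes of -0.94 to -0.78 and adjusted p of 3.01e-07 to 0.0276. Of its 75-base windows, 6.66% also occurred in transcripts of 2 other genes.

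Hist1h2bc lies in the same cluster on chromosome 13 (23684199 to 23692908, plus strand), with 1156 exonic bases in its gene model. Its level was 143, 162 and 184 CPM in the WT mice and 84.7, 110 and 117 CPM in the Trpm2-/- mice. The genotypes did not overlap, but the highest Trpm2-/- mouse came close to the lowest WT mouse. Its log2 fold change was -0.65 ± 0.160, with an adjusted p of 0.0307 (edgeR). This call depended on single mice, as the adjusted p was 0.105 without WT mouse 2, 0.146 without WT mouse 3 and 0.0672 without Trpm2-/- mouse 1. It was also lost in limma on log2(FPKM + 1), with an adjusted p of 0.0699, and on log2(FPKM + 0.1), with 0.0660. In 27.1% of its windows the sequence also occurred in 14 other genes, so some of its reads could belong to other H2B genes.

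**Figure D2:**
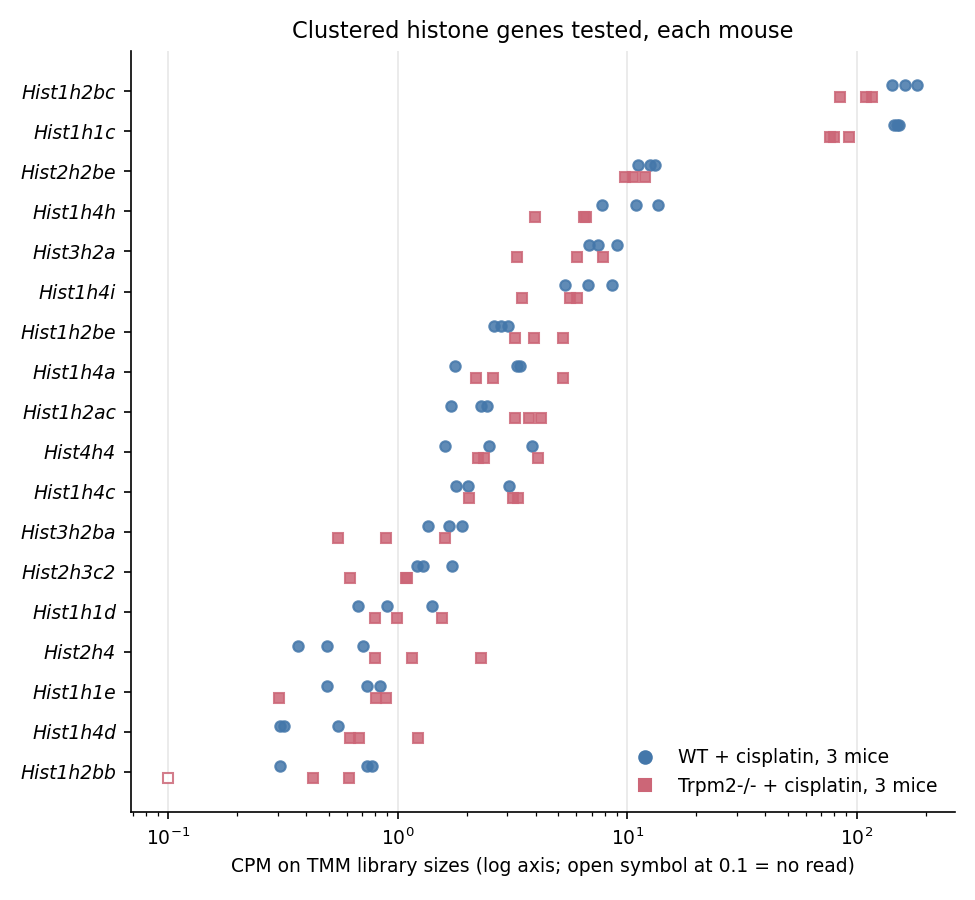
Level (CPM on TMM library sizes, log axis) of the 18 clustered histone genes tested, with 1 point for each mouse, circles for WT and squares for Trpm2-/-. Hist1h1c and Hist1h2bc stood apart from all others and did not overlap between genotypes, whereas 10 of the other 16 genes did.

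The summed level of all 67 genes was 342, 377 and 400 CPM in WT and 215, 262 and 247 CPM in Trpm2-/- mice, a mean of 373 ± 29.1 against 241 ± 24.4 (SD, n = 3 each) and a ratio of 0.647 (0.697 on raw library totals). Hist1h1c and Hist1h2bc together held 83.2% to 84.1% of these counts in WT and 76.6% to 78.0% in Trpm2-/- mice. The other 65 genes summed to 54.4, 61.8 and 67.2 CPM in WT and 50.2, 59.9 and 54.3 CPM in Trpm2-/- mice, and these overlapped, at a ratio of 0.897. The sums of members were not tested. By family, Hist1h1c held 11064 of the 11262 H1 counts and Hist1h2bc 12733 of the 14521 H2B counts, so the family sums follow these genes. The H1 sum had a ratio of 0.563 with Hist1h1c and 1.19 without it, where the other 5 H1 genes held 198 counts in all. The H2B sum had a ratio of 0.665 with Hist1h2bc and 0.892 without it. The ratios of the H2A, H3 and H4 sums were 0.978, 1.02 and 0.839. By cluster, the ratio was 0.630 for the 54 Hist1 genes on chromosome 13, 0.932 for the 10 Hist2 genes on chromosome 3, 0.717 for the 2 Hist3 genes on chromosome 11, and 1.10 for Hist4h4 on chromosome 6.

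**Figure D3:**
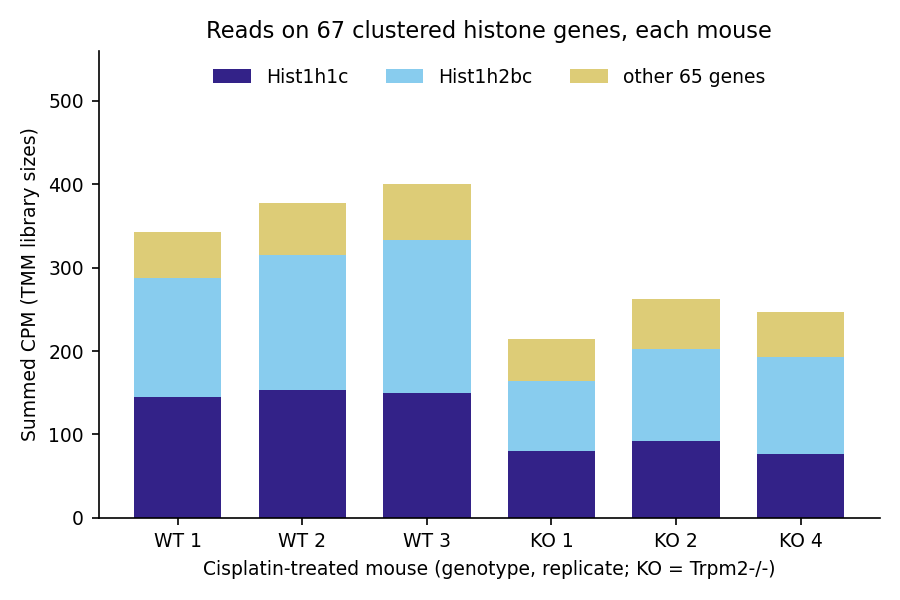
Summed CPM of the 67 clustered histone genes in each mouse, as bars from 0 divided into Hist1h1c, Hist1h2bc and the other 65 genes. The bars of the Trpm2-/- mice (KO, 215 to 262 CPM) were shorter than those of the WT mice (342 to 400 CPM), and the segment of the 65 genes ranged from 50.2 to 67.2 CPM.

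The genotypes did not overlap in 8 of the 18 genes tested, 4 lower in Trpm2-/- (Hist1h1c, Hist1h2bc, Hist1h4h and Hist2h3c2) and 4 higher (Hist1h2ac, Hist1h2be, Hist1h4d and Hist2h4). Over all genes tested, 16.9% did not overlap and were lower and 16.7% higher, so these counts were near the background. Hist1h4d and Hist2h4 passed the filter on low counts through the Trpm2-/- libraries. The number of higher genes therefore partly follows the filter.

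The H4 genes, which all encode the same or nearly the same protein, lay at both ends of the range. Hist1h4h had 7.76, 13.6 and 10.9 CPM in WT and 6.48, 6.61 and 3.98 CPM in Trpm2-/- mice. Its log2 fold change of -0.92 ± 0.288 did not pass the threshold, with an adjusted p of 0.0686 (edgeR). It passed with DESeq2 (adjusted p of 0.0247), without the filter on low counts (0.0102) and without WT mouse 1 (0.0495), and 42.4% of its windows occurred in 11 other genes. Hist2h4 was the opposite case, with 0.49, 0.71 and 0.37 CPM in WT and 0.79, 1.16 and 2.30 CPM in Trpm2-/- mice. Its log2 fold change was 1.43 ± 0.533, with an adjusted p of 0.112 (edgeR), and 0.90 without Trpm2-/- mouse 4, its highest library. Hist2h4 passed the filter through the Trpm2-/- libraries, 3 of which were over the limit of 0.622 CPM on raw library totals against 1 WT library, and so did Hist1h4d, with 3 against 0. On TMM library sizes, Hist1h4d had 0.31, 0.32 and 0.55 CPM in WT and 1.22, 0.68 and 0.62 CPM in Trpm2-/- mice, with a log2 fold change of 1.08 and an adjusted p of 0.208 (edgeR). The log2 fold changes of Hist1h4i, Hist1h4a, Hist1h4c and Hist4h4 were -0.44, 0.24, 0.32 and 0.13, and in each of them the genotypes overlapped.

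Among the other H2B genes, Hist2h2be had no window shared with another gene and was the third highest in CPM. It had 12.6, 11.2 and 13.2 CPM in WT and 9.78, 10.6 and 11.9 CPM in Trpm2-/- mice, which overlapped, with a log2 fold change of -0.19 ± 0.183 and an adjusted p of 0.537 (edgeR). Hist1h2be had 3.02, 2.63 and 2.82 CPM in WT and 3.91, 5.25 and 3.23 CPM in Trpm2-/- mice, with a log2 fold change of 0.55 ± 0.298 and an adjusted p of 0.266 (edgeR). Its gene model overlaps that of the linker histone gene Hist1h1e on the same strand, so reads of these genes could not be fully told apart. Hist3h2ba and Hist1h2bb, at 1.90 CPM or less, had log2 fold changes of -0.68 ± 0.459 and -0.80 ± 0.831, and both overlapped between genotypes. Leaving out single mice gave -1.18 to -0.39 for Hist3h2ba and -1.46 to -0.21 for Hist1h2bb, and Trpm2-/- mouse 4 set an end of both ranges (-1.18 and -0.21 without it). The H1 genes Hist1h1d and Hist1h1e, at 1.57 CPM or less in every library, had log2 fold changes of 0.16 ± 0.464 and -0.05 ± 0.528, whose signs changed when single mice were left out (for Hist1h1d to -0.06 without WT mouse 3 and -0.16 without Trpm2-/- mouse 2, and for Hist1h1e to 0.11 without WT mouse 2 and 0.30 without Trpm2-/- mouse 1). Hist2h3c2, the H3 gene tested, had 1.72, 1.22 and 1.29 CPM in WT and 1.10, 1.09 and 0.62 CPM in Trpm2-/- mice, with a log2 fold change of -0.59 ± 0.412 and an adjusted p of 0.391 (edgeR), and 62.6% of its windows were shared.

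**Figure D4:**
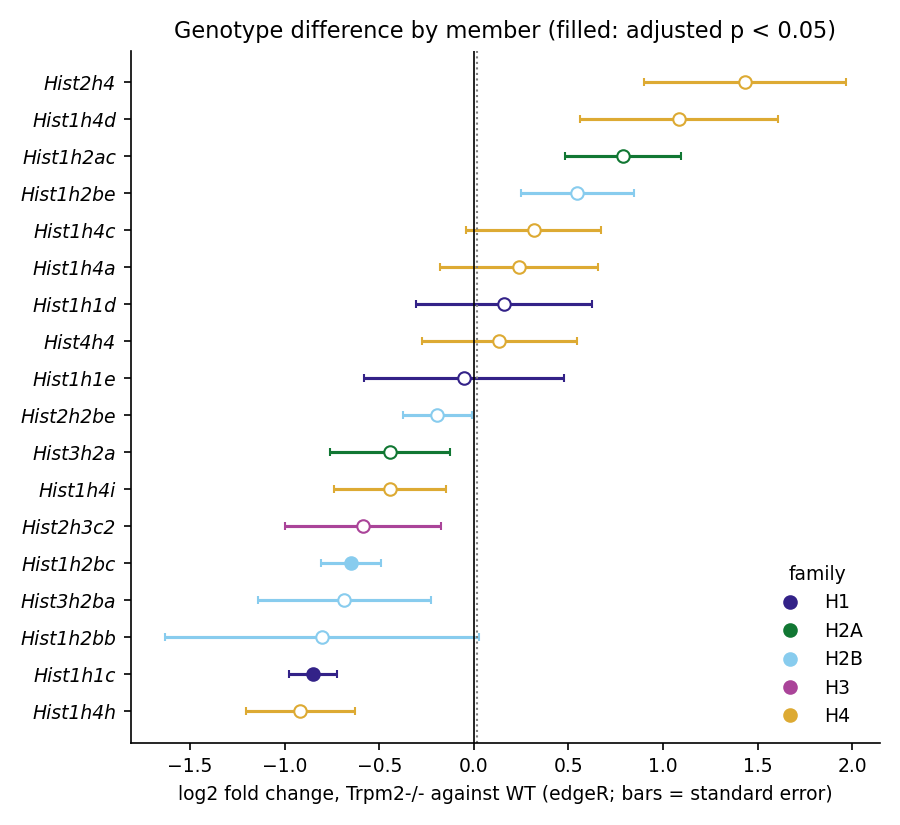
Log2 fold change of Trpm2-/- against WT with its standard error (edgeR) for the 18 clustered histone genes tested, coloured by family. Filled points are the 2 genes with an adjusted p under 0.05, Hist1h2bc and Hist1h1c, and the dotted line is the median of all genes tested (0.02).

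Hist1h2bc is transcribed away from the H2A gene Hist1h2ac, and the genes of this pair had log2 fold changes of opposite sign. Hist1h2ac had 2.46, 2.31 and 1.72 CPM in WT and 3.24, 3.75 and 4.23 CPM in Trpm2-/- mice. Every Trpm2-/- mouse was above every WT mouse, with a log2 fold change of 0.79 ± 0.305, which did not pass the threshold (adjusted p of 0.125, edgeR). The difference between the 2 log2 fold changes was not tested, and 2 small annotated genes overlap the model of Hist1h2ac. The 239 bases before the start of Hist1h2bc lie between these genes and are shown here on the plus strand, from the RefSeq promoter of Hist1h2ac (GRCm38.p6, chr13:23683960-23684198). Capitals mark TATAAA on the minus strand near the start of Hist1h2ac, 3 copies of CCAAT, the first of them on the minus strand, and the octamer ATTTGCAT, which begins 117 bases before the start of Hist1h2bc.
Hist1h2ac to Hist1h2bc: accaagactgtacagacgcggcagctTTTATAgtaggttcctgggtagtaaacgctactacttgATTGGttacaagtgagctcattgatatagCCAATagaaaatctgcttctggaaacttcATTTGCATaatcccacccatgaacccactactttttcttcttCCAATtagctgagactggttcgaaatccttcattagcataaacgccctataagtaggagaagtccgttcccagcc

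The 250 bases before the start of Hist1h1c in RefSeq (GRCm38.p6, chr13:23738557-23738806, plus strand) hold the letters AAACACA, known as the H1 box, beginning 112 bases before the start, and CCAAT beginning 54 bases before it.
Hist1h1c: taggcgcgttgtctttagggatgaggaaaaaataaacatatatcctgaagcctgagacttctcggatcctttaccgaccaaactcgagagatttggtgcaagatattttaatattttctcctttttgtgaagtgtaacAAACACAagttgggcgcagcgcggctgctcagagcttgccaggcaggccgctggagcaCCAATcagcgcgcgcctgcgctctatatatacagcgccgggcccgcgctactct

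The same letters were searched on both strands of 300-base promoters (250 bases before to 50 after the start), and RefSeq had at least 1 for 61 of the 67 genes. TATAAA occurred in 35 of the 61 genes, against 13.6% of all 32851 promoters. CCAAT occurred in 52 of 61 against 37.4%, in every H1, H2A, H2B and H3 gene with a promoter and in 3 of 12 H4 genes. The octamer occurred in 14 of 61 against 1.74%, in 7 of 17 H2A and 7 of 16 H2B genes and in none of the other families. The H1 box occurred in 9 of 61 against 7.18%, and in 5 of 6 H1 genes. A match of letters is a description of the sequence and not evidence of binding.

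Because the clustered genes are S-phase genes, genes of the cell cycle are given beside them. Of 36 listed genes of DNA replication and the G1/S transition, 36 were tested, with 1 called higher and 1 lower (2.78% each). Of all genes tested, 4.74% were called higher and 7.28% lower. The median log2 fold change of the 36 genes was 0.15. Cdk2, the S-phase kinase, had a log2 fold change of 0.51 with an adjusted p of 0.0454 (edgeR). Tyms, thymidylate synthase, had -0.65 with 0.0271. The Cdk2 call was lost when any single mouse was left out (adjusted p of 0.0516 to 0.178), and the Tyms call was lost without WT mouse 2 (0.137), WT mouse 3 (0.115) or Trpm2-/- mouse 4 (0.0521). Other genes of this list also pointed both ways without passing, such as Rrm2, a subunit of ribonucleotide reductase (0.63, adjusted p of 0.0602), and Gmnn, the licensing inhibitor geminin (-0.63, adjusted p of 0.0633), both by edgeR. Pcna, the sliding clamp of the replication fork, was near 0 (-0.01).

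Genes of G2 and mitosis mostly had log2 fold changes above 0, although none was called by edgeR. Of 34 listed, 32 were tested, 26 were above 0 (81.2%, against 51.6% of all genes tested), and the median was 0.56. An unadjusted p under 0.05 was found for 10 (31.2%), near the 28.3% of all genes tested. Mki67, the proliferation marker, had 3.02, 4.49 and 2.39 CPM in WT and 5.80, 11.9 and 3.85 CPM in Trpm2-/- mice. These overlapped, with a log2 fold change of 1.12 and an adjusted p of 0.122 (edgeR). Top2a, topoisomerase II alpha, had 1.11 with an adjusted p of 0.118 (edgeR), and Kif11, a spindle motor, 1.20 with 0.0675. With DESeq2, 3 genes of the cell cycle lists were called higher and 2 lower. The list of CDK inhibitors and RB proteins had 9 genes tested, 0 called by edgeR, 1 at an unadjusted p under 0.05 and a median of 0.26, and Cdkn1a, the p53 target that encodes p21, had 0.39 with an adjusted p of 0.201 (edgeR).

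The proteins that transcribe and process histone mRNA come from genes that make ordinary polyadenylated mRNA. Of 21 named, 19 were found and tested, with 1 called higher (5.26%, against 4.74% of all genes tested) and 0 lower. The median log2 fold change was 0.03. Casp8ap2, which encodes FLASH, had 7.70, 8.02 and 6.49 CPM in WT and 12.1, 11.7 and 12.2 CPM in Trpm2-/- mice. The genotypes did not overlap, with a log2 fold change of 0.70 and an adjusted p of 0.0434 (edgeR), but the call was lost when any single mouse was left out (0.064 to 0.206). Npat, the coactivator of histone genes at the histone locus body, had 0.47 with an adjusted p of 0.142 (edgeR). Lsm11, a subunit of the U7 particle that cuts histone precursors, had 0.54 with 0.147, and Slbp had 0.23 with 0.316.

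Histone chaperones, which carry histones to and from DNA, had 20 genes tested, 2 called higher, 0 lower and a median of 0.11. The 2 higher calls were 10% of this list, against 4.74% of all genes tested. Atrx, which deposits H3.3 with Daxx, had a log2 fold change of 0.84 with an adjusted p of 0.00673 (edgeR) and was called in all 16 alternatives. Hjurp, the chaperone of the centromeric histone, had 0.52 with 0.0224, and lost the call without WT mouse 1, 2 or 3 (0.0649, 0.103 and 0.135). Asf1b, the S-phase chaperone of H3 and H4, had 1.32 with an adjusted p of 0.0864 (edgeR).

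Variant histone genes lie outside the clusters, and most are expressed in all phases of the cell cycle, from polyadenylated mRNA. Of 15 listed, 12 were tested, with 10 below 0, 1 called lower, 0 called higher and a median of -0.17. Of all 15816 genes tested, 7661 were below 0, 7.28% were called lower and 4.74% higher. H2afv, an H2A.Z gene, had 49.1, 67.8 and 57.8 CPM in WT and 34.6, 41.7 and 33.7 CPM in Trpm2-/- mice. The genotypes did not overlap, with a log2 fold change of -0.67 and an adjusted p of 0.0249 (edgeR), and the call was lost without WT mouse 2 (0.121), WT mouse 3 (0.095), Trpm2-/- mouse 1 (0.0671) or Trpm2-/- mouse 4 (0.0579). H1f0, the linker histone of cells that have stopped dividing, had -0.34 with an adjusted p of 0.141 (edgeR), and H2afz, the other H2A.Z gene, -0.32 with 0.259. The genes of the replacement histone H3.3, H3f3a and H3f3b, had -0.13 and -0.06, and H2afx, whose protein is phosphorylated at DNA breaks, had -0.11.

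**Figure D5:**
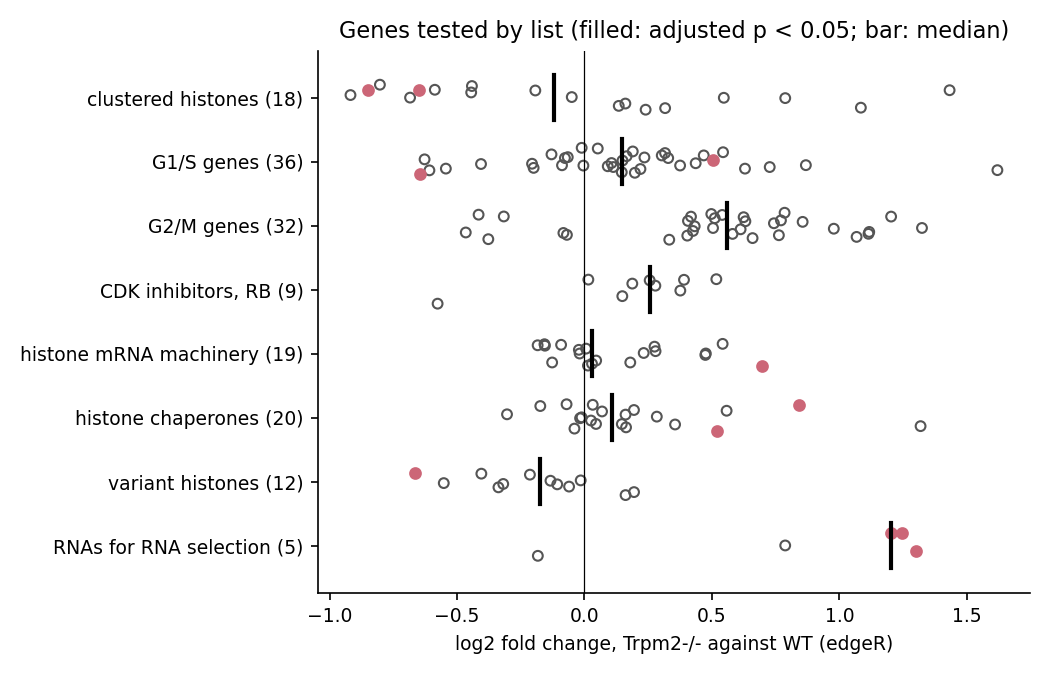
Log2 fold change of Trpm2-/- against WT (edgeR) for the genes tested in each list, with the number tested in brackets, filled points for an adjusted p under 0.05 and a bar at the median. The G2/M genes lay mostly above 0 (median 0.56) with none called, the clustered histone genes on both sides of 0 (median -0.12), and 3 of the 5 RNAs given for RNA selection were called higher.

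As the clustered histone mRNAs differ in their tails, RNAs that also differ in their ends are given per library. The 19 histone genes with AATAAA after the stop codon summed to 347 ± 25.6 CPM in WT and 222 ± 26.1 in Trpm2-/- kidneys. Without Hist1h1c and Hist1h2bc the sums were 34.9 ± 3.08 and 35.2 ± 6.35 CPM. AATAAA was searched anywhere after the stop codon, and 14 of the 19 genes also held a stem-loop. The letters therefore do not show which mRNAs had a tail. The 30 genes with a stem-loop and no AATAAA had 21.1, 27.5 and 28.2 CPM in WT and 21.6, 19.7 and 15.3 CPM in Trpm2-/- mice. The genotypes overlapped, at a ratio of 0.738. Among the 30 genes are Hist1h4h, Hist1h4i and Hist1h4d, which hold the variant letters ATTAAA. Hist1h4h and Hist1h4i, with 783 and 570 of the 2119 counts of these 30 genes, held most of them. Their means were 10.8 and 6.89 CPM in WT and 5.69 and 5.06 CPM in Trpm2-/- kidneys. The ratio of 0.738 is thus mainly that of these H4 genes and not of the 30 genes alike. Small nuclear RNAs, which have no poly(A) tail, summed to 18.3, 17.9 and 21.3 CPM in WT and 23.0, 26.4 and 30.4 CPM in Trpm2-/- mice, without overlap. Genes annotated as rRNA summed to 556, 1061 and 851 CPM in WT and 763, 582 and 412 CPM in Trpm2-/- mice, which overlapped. Small nucleolar RNAs summed to 45.5, 42.5 and 43.2 CPM in WT and 41.7, 56.2 and 59.3 CPM in Trpm2-/- mice, which overlapped. Malat1, a nuclear RNA whose end is a triple helix, had a log2 fold change of 1.20 with an adjusted p of 0.00338 (edgeR). The mitochondrial rRNAs, which have short tails, had log2 fold changes of 1.25 for mt-Rnr1 and 1.30 for mt-Rnr2, where all 37 genes of the mitochondrial genome together had a summed CPM ratio of 1.82 between genotypes, mRNAs with tails included. Rn7sk, a small RNA without a tail, had 11.9, 18.7 and 17.6 CPM in WT and 18.5, 49.7 and 15.2 CPM in Trpm2-/- mice, which overlapped. Its log2 fold change was 0.79 with an adjusted p of 0.235 (edgeR), 0.07 without Trpm2-/- mouse 2, and it passed without the filter on low counts (adjusted p of 0.0013). The part of RNA selection or RNA quality in the histone values was not tested.

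Markers of cell types also differed between genotypes. Of the 12 kidney markers, 7 were called lower and 0 higher, with a median log2 fold change of -0.89. Over all genes tested, 7.28% were called lower and 4.74% higher. Of 20 leukocyte markers 12 were tested, with 0 called higher, 1 lower and a summed level of 156 to 198 CPM in WT and 171 to 256 CPM in Trpm2-/- mice. The T cell marker Cd3e was at 0 in 3 of the 6 libraries. Fibroblast markers had 7 genes tested with 1 called higher, endothelial markers 8 with 1 lower, and urothelial markers 6 with 1 higher and 2 lower, among which Upk2 had 56, 1 and 17 counts in WT and 1, 0 and 0 counts in Trpm2-/- mice. Trpm2-/- mouse 4 stood apart from Trpm2-/- mice 1 and 2 in some of these sums. Fibroblast markers summed to 70.9 to 103 CPM in WT and to 88.8, 73.6 and 187 CPM in Trpm2-/- mice 1, 2 and 4, and endothelial markers to 131 to 203 CPM and to 68.7, 73.5 and 227 CPM. For the endothelial markers, mouse 4 lay just above the WT range and Trpm2-/- mice 1 and 2 lay below it. Trpm2-/- mouse 4 was the highest of all 6 for Hist2h4. Urothelial markers summed to 644 to 773 CPM in WT and 982 to 1318 CPM in Trpm2-/- mice, almost all of it Krt20 (621 to 758 and 970 to 1307 CPM), and the other 7 summed to 77.8, 14.1 and 23.1 CPM in WT and 8.62, 11.8 and 12.2 CPM in Trpm2-/- mice. In whole kidney, fewer cells of a type and less RNA per cell cannot be told apart, and the part of cell composition in the lower levels of Hist1h1c and Hist1h2bc was not tested.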

How the data were processed

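RNA was extracted with Trizol and sequenced on an Illumina HiSeq instrument from NEBNext libraries. The authors deposited gene counts, which are whole reads per gene without normalization, and FPKM values, which are scaled to gene length and library size. The FPKM values do not follow the raw library totals. The summed ratio of the 67 members was 0.651 on FPKM, 0.647 on TMM library sizes and 0.697 on raw totals. The submitters' processing notes name HISAT2, StringTie and mm9, but the positions of all 67 members in the table equal those of GRCm38, and 53499 of 54409 shared genes do. The counting tool and strand setting are not given in the sources used here.

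The count test was that of edgeR 4.0.16 (R 4.3.3): filterByExpr (minimum count 10, total 15), TMM normalization, and the two-sided quasi-likelihood test on genotype with Benjamini-Hochberg adjustment over 15816 genes. Total counts were 14053307 to 17150089 per library, and the floor of 3 counts covers counting error only. The p-values measure the spread between 3 mice per genotype. The SE was obtained by dividing the size of the log2 fold change by the root of its F value. Exact permutation tests were not used, since 3 against 3 mice cannot go below a p of 0.1. Levels are CPM on TMM library sizes within a gene and the deposited FPKM between genes.

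Stem-loops, AATAAA and 75-base windows shared with other genes were read from GENCODE release 21 (GRCm38), and promoters from RefSeq (GRCm38.p6), where 6 members, Hist1h2bc among them, had no matching entry. Named genes were every member with an adjusted p under 0.05, in each family the 3 highest by FPKM and the 2 largest and 2 smallest log2 fold changes, the 4 smallest p of each other list, and a fixed set of markers of the cell cycle, histone mRNA and variant histones. Not all of these are described. Members and lists were chosen with earlier results of these data known.

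Alternatives were upper quartile normalization, DESeq2 size factors, other filters, DESeq2 1.42.0, limma-voom and limma 3.58.1 on log2(FPKM + 1) or log2(FPKM + 0.1), a fit of protein-coding genes alone, a replicate block, and leaving out each mouse. The fits were tested on simulated data.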

Additional observations from a re-analysis of the deposited data

How the results depend on the processing

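Hist1h1c was called in all 16 alternatives. Of the 67 genes, 2 were called lower, 1 in limma on log2(FPKM + 1), 1 on log2(FPKM + 0.1), 1 with the replicate block, and 1 to 3 when each mouse was left out; 0 were called higher in all 16 alternatives. At the study's threshold 1 member was higher, with 0 at a minimum of 1 CPM in 3 libraries, 0 in limma on log2(FPKM + 1), 4 on log2(FPKM + 0.1), 0 with the block and 0 to 1 without single mice, and 0 were lower, with 1 on log2(FPKM + 0.1) and 0 to 2 without single mice. The median log2 fold change of -0.121 became 0.0197 on log2(FPKM + 1) and -0.0795 on log2(FPKM + 0.1), with 41 members tested on each FPKM scale. The summed ratio of 0.647 was 0.619 to 0.683 without single mice, and 0.897 without Hist1h1c and Hist1h2bc, a choice made after seeing the data.

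Over all genes, 750 were called higher, with 1262 without a filter, 304 on log2(FPKM + 1), 338 on log2(FPKM + 0.1), 341 with the block and 160 to 819 without single mice. Lower calls were 1152, with 754 on log2(FPKM + 1), 661 with the block and 470 to 1240 without single mice. At the study's threshold, 553 higher genes became 1073 without a filter and 117 on log2(FPKM + 1), and 649 lower genes became 398 there. The cell cycle lists had 1 gene called higher, with 2 by upper quartile, 5 without a filter, 2 at 1 CPM, 3 by DESeq2, 0 by limma-voom, 0 on either FPKM scale, 2 among protein-coding genes, 0 with the block and 0 to 5 without single mice; 1 was lower, with 2 without a filter, 2 by DESeq2, 0 with the block and 0 to 1 without single mice. The machinery, chaperone and variant lists had 3 higher, with 1 on either FPKM scale, 1 with the block and 1 to 3 without single mice, and 1 lower, with 0 on either FPKM scale, 0 with the block and 0 to 2 without single mice. The cause of these changes was not tested.

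Some log2 fold changes near 0 changed sign, with ranges without single mice of -0.16 to 0.49 for Hist1h1d, -0.30 to 0.30 for Hist1h1e, -0.24 to 0.47 for Hist1h4a, -0.36 to 0.02 for H3f3a, -0.15 to 0.05 for H3f3b, -0.09 to 0.05 for Pcna and -0.02 to 1.61 for Trpm2. Hist1h1d was also -0.01 with the block, and Pcna 0.03 by upper quartile and 0.02 with the block.

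The replicate numbers 1 and 2 occur in both genotypes but are different mice. The correlation of deviations was 0.064 and -0.012 between same-numbered mice, and -0.248 to 0.217 between mice of different number. With so few mice, these values cannot tell whether same-numbered mice shared a processing step, and the labels do not name a batch. With the block the adjusted p of Hist1h2bc was 0.0613 and that of Rn7sk 0.0374. With 34 of 67 members at 10 counts or fewer, depth limits what can be said of most of them.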

Other observations

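Among genes with clustered histone names that are not protein-coding, Hist3h2bb-ps, a pseudogene on chromosome 11, had 11, 4 and 6 counts in the WT mice and 6, 1 and 4 counts in the Trpm2-/- mice, more than most of the protein-coding members. Hist1h2al had 3 counts in WT mouse 3 and none elsewhere, and Hist1h2aj had 1 count in Trpm2-/- mouse 2 and none elsewhere. Of 3 histone genes known from the testis, none was tested, and their sum was 0.311 CPM or less in every library.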
